A study of Mus musculus with 23 samples.

Results

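Marco, Krt79, Fabp1, Plet1, Cidec, Pparg, Itgax and Mertk, 8 genes that mark mouse alveolar macrophages, were followed through RNA-Seq of whole lung. The genes were chosen by name, and all 8 were found among the 35322 gene names of the expression table. The 23 libraries came from BALB/c offspring, described as 13-week-old females, of dams that received PM2.5, fine airborne particulate matter, or saline by the nose before mating, through gestation and until weaning. The 7 Sham and 7 PM offspring, of saline and PM2.5 dams in turn, had no allergen challenge. They are labelled as PBS controls and described in the methods as breathing nebulised saline. The methods do not say whether these controls were also sensitised by injection. The 5 Sham-OVA and 4 PM-OVA offspring were sensitised to ovalbumin (OVA) by intraperitoneal injection with alum and then breathed aerosolised OVA, a model of allergic airways disease. The PM offspring were exposed only through the dam, so PM names a maternal exposure. Lungs were taken the day after the last aerosol. The methods also describe lung function testing followed by saline lavage, a wash that removes airspace cells such as alveolar macrophages, and which of the sequenced lungs were lavaged is not given in the sources used here. They name the right lower lobe, while the labels give the tissue as RML.

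Alveolar macrophages live on the airspace surface, where they clear surfactant lipid, inhaled particles and dying cells. They settle in the lung around birth, when GM-CSF from the epithelium and TGF-beta induce PPAR-gamma, the nuclear receptor that sets their lipid-handling programme. During allergic inflammation they share the lung with recruited monocyte-derived macrophages, interstitial macrophages, dendritic cells and eosinophils, which express some of the same genes. None of the 8 genes is unique to alveolar macrophages across the body. In a bulk library, fewer cells of a type and less RNA per cell cannot be told apart.

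Levels are given as RPM, a gene's reads scaled to the mapped reads of its library, and fold changes are on the scale of log2(RPM + 0.5), which understates the change of low genes. A gene was called when limma gave an adjusted p (Benjamini-Hochberg, over 16795 genes tested) under 0.05. The reads counted on genes ran from 13089691 to 17393579 in the 14 saline libraries and from 2298645 to 12355561 in the 9 OVA libraries, so every OVA library was shallower than every saline library. Replicate 3 of Sham-OVA and the third and the fourth of PM-OVA were the 3 shallowest, where a single read counted for 0.311, 0.133 and 0.182 RPM. The correlation between libraries of a group was at least 0.971 in Sham and 0.974 in PM, but fell to 0.899 in Sham-OVA and 0.895 in PM-OVA. The library labelled Sham replicate 1 goes against its label as a female, since the Y-linked Eif2s3y stood at 54.0 RPM, with 0 in the other 22 libraries, and Xist at 0.289 RPM, where the rest of Sham had 528 to 1618. No member gained or lost a call without it. As a check of the tissue, Sftpc, the surfactant protein C gene of alveolar type 2 cells, lay between 6490 and 14557 RPM in the Sham libraries. The macrophage genes Lyz2, C1qa and Spi1 were also well detected there, with means of 227, 71.8 and 38.1 RPM.

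OVA challenge lowered 6 of the 8 genes and raised 1, Itgax, in the Sham offspring, and gave the same 7 calls in the PM offspring. The 6 lower genes were Marco, Fabp1, Plet1, Cidec, Pparg and Mertk, and Krt79 did not pass the test in either cohort. Against this, 68.1% of all genes tested were called in the Sham offspring, 47.5% lower and 20.6% higher, and 65.3% in the PM offspring, 45.2% lower and 20.1% higher. The median log2 fold change of the 8 genes was -1.45 in the Sham offspring, where the median of all genes was -0.48, and -1.66 in the PM offspring, where it was -0.43. The fall of all genes depends on the scaling, since TMM scaling moved those medians to -0.09 and -0.04 and the calls to 5293 higher and 5902 lower in the Sham offspring and to 5345 higher and 5498 lower in the PM offspring. Under TMM scaling 6 members were still called lower in the Sham offspring and 5, all but Plet1, in the PM offspring. At the stricter threshold for a differentially expressed gene (DEG), an adjusted p under 0.000001 with a log2 fold change beyond 1, only Itgax passed in both cohorts, beside 4.51% of genes tested in the Sham offspring, 1.98% higher and 2.53% lower, and 0.286% in the PM offspring, 0.262% higher and 0.0238% lower.

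**Figure D1:**
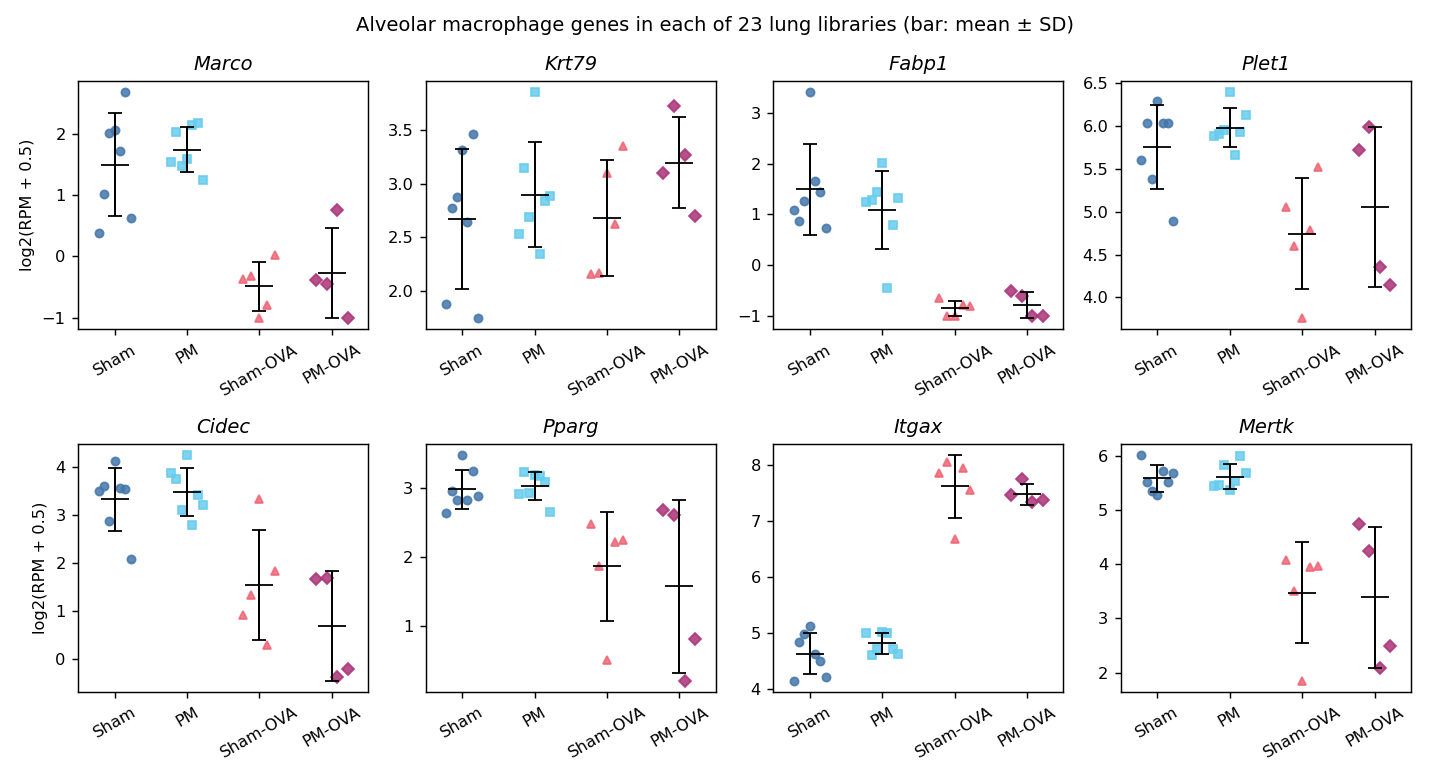
Level of each of the 8 genes as log2(RPM + 0.5) in the Sham, PM, Sham-OVA and PM-OVA libraries, 1 point per library, with the mean and SD as a bar. Itgax sits higher in all 9 OVA libraries, whereas Marco, Fabp1 and Mertk sit lower in all 9 than in their own saline group, and Krt79 overlaps throughout.

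Marco encodes a class A scavenger receptor with which macrophages bind bacteria and unopsonised particles (GRCm38 chromosome 1, 120474538 to 120505024, reverse strand). It had 2.79 RPM as the median of the Sham libraries, with a range of 0.808 to 5.93, and 2.5 RPM as the median of the PM libraries, with a range of 1.88 to 4.03. The Sham-OVA libraries had 0.278, 0.301, 0, 0.0797 and 0.511 RPM, and the PM-OVA libraries 0.269, 0.232, 1.19 and 0 RPM. All 9 OVA libraries were below all libraries of their own saline group, and those 9 values rest on 16 reads in Sham-OVA and 16 in PM-OVA. The log2 fold change was -1.99 (SE 0.37, limma adjusted p = 2.42e-04) in the Sham offspring and -2.01 (SE 0.31, limma adjusted p = 2.26e-04) in the PM offspring. With so few reads the size depends on the pseudocount, and DESeq2 on the recovered reads gave -3.07 and -2.47. The ratio of the mean levels was 11.8 in the Sham offspring and 6.95 in the PM offspring.

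Mertk encodes the receptor tyrosine kinase by which macrophages engulf apoptotic cells, bridged by Gas6 and protein S (chromosome 2, 128698956 to 128802894, forward strand). The authors, using data from sorted mouse lung cells, list Mertk among signature genes of mesenchymal cells. That list belongs to their set of genes that were DEGs after OVA in Sham offspring only. The part of such cells in its level was not tested. It ran from 38.3 to 64.0 RPM, median 45.5, in Sham and from 41.0 to 63.1 RPM, median 45.9, in PM. After OVA, Sham-OVA libraries had 16.4, 10.9, 3.11, 14.9 and 15.2 RPM, and the PM-OVA libraries 26.3, 18.4, 3.72 and 5.08 RPM. No OVA library reached its saline group, and the lowest values were those of the 3 shallowest libraries. The log2 difference after OVA was -2.11 (SE 0.32, limma adjusted p = 4.37e-05) in the Sham offspring and -2.23 (SE 0.42, limma adjusted p = 6.87e-04) in the PM offspring. Without the 3 shallowest libraries these became -1.71 and -1.12, and Mertk was still called lower in both. Within Sham-OVA the 4 deeper libraries lay between 10.9 and 16.4 RPM.

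Itgax encodes integrin alpha X, or CD11c, which pairs with the beta2 chain Itgb2 and is carried by alveolar macrophages, dendritic cells and some recruited monocyte-derived cells (chromosome 7, 128129547 to 128150657, forward strand). It ran from 17.2 to 34.2 RPM, median 24.0, in Sham and from 23.8 to 31.9 RPM, median 25.9, in PM. Sham-OVA libraries stood at 232, 266, 101, 245 and 186 RPM, and the PM-OVA libraries 175, 214, 161 and 165 RPM. Each OVA library was above every saline library, the lowest OVA value being that of Sham-OVA replicate 3, the shallowest library. Its log2 rise was 2.99 (SE 0.24, limma adjusted p = 1.63e-07) in the Sham offspring and 2.67 (SE 0.14, limma adjusted p = 7.28e-08) in the PM offspring, and 0.774% of genes tested rose more in each. Itgax was called higher under every alternative scaling, filter and test, with estimates between 2.88 and 3.47 in the Sham offspring and between 2.62 and 3.13 in the PM offspring. Its partner Itgb2 was not called in either cohort, at -0.20 (limma adjusted p = 0.624) and -0.54 (limma adjusted p = 0.185).

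Fabp1 encodes a fatty acid binding protein best known from hepatocytes and is also a marker of mouse alveolar macrophages (chromosome 6, 71199827 to 71205023, forward strand). It ran from 1.15 to 10.1 RPM, median 1.91, in Sham and from 0.235 to 3.56 RPM, median 1.94, in PM. The Sham-OVA libraries had 0.139, 0, 0, 0.0797 and 0.0730 RPM, and the PM-OVA libraries 0.202, 0.155, 0 and 0 RPM. All OVA libraries were below their saline group, on 4 reads in Sham-OVA and 5 in PM-OVA, although PM replicate 5, at 0.235 RPM, lay close to the highest PM-OVA value. The log2 fold change was -2.34 (SE 0.37, limma adjusted p = 6.35e-05) in the Sham offspring and -1.87 (SE 0.37, limma adjusted p = 8.56e-04) in the PM offspring. DESeq2, with no added pseudocount, gave -5.04 and -3.78.

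Sham replicate 4, with the highest Fabp1, also had the highest level of the hepatocyte gene Alb, 110.5 RPM, and PM replicate 4, with the second highest, had 36.5 RPM. The sum of the 5 hepatocyte markers was 164.6 and 53.0 RPM in these libraries, at most 17.4 RPM in the other saline libraries and at most 0.903 RPM in the OVA libraries, and Serpina1a of that list was at 0 in every library. Across the 14 saline libraries Fabp1 and Alb had Pearson's r = 0.69 (permutation p = 0.00507, adjusted over 31 relations 0.0355) and Spearman's rho = 0.48 (permutation p = 0.0874, adjusted 0.181). Without the 2 libraries farthest from the Fabp1 median, Sham replicate 4 and PM replicate 5, r fell to 0.42, so the relation rests in part on them. PM replicate 4 was kept in that value. In the 4 Sham libraries with Alb under 1 RPM, Fabp1 was between 1.15 and 2.21 RPM, all above the highest Sham-OVA value of 0.139 RPM. In the 4 such PM libraries it was between 0.235 and 1.99 RPM, all above the highest PM-OVA value of 0.202 RPM.

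Cidec encodes a protein of the lipid droplet surface that is abundant in adipocytes (chromosome 6, 113424634 to 113435760, reverse strand). It ran from 3.77 to 16.9 RPM, median 11.2, in Sham and from 6.46 to 18.6 RPM, median 10.2, in PM. In Sham-OVA the values were 1.39, 2.03, 9.63, 0.717 and 3.07 RPM, and the PM-OVA libraries 2.69, 2.70, 0.266 and 0.363 RPM. PM-OVA did not overlap PM, whereas Sham-OVA replicate 3 lay among the Sham libraries and the other 4 Sham-OVA libraries below them. On the log2 scale the difference was -1.79 (SE 0.45, limma adjusted p = 0.00277) in the Sham offspring and -2.80 (SE 0.43, limma adjusted p = 2.25e-04) in the PM offspring. In the Sham offspring DESeq2 did not call it (-1.03, adjusted p = 0.153, the highest over all alternatives, whose adjusted p otherwise reached 0.0418 at most). Without the 3 shallowest libraries the values were -2.24 and -1.82, both called.

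Sham-OVA replicate 3 also had the highest level of the adipocyte gene Adipoq among the Sham-OVA libraries, 2.80 RPM against at most 0.876 RPM in the other 4. Over the saline libraries Cidec and Adipoq had r = 0.75 (permutation p = 0.00223, adjusted 0.0230) and rho = 0.78 (permutation p = 0.00158, adjusted 0.0490), with r = 0.81 without the 2 libraries farthest from the median, 0.88 within Sham and 0.53 within PM. The sum of the 8 adipocyte markers ran from 75.7 to 169.6 RPM in Sham, 80.2 to 141.2 in PM, 73.4 to 121.5 in Sham-OVA and 63.4 to 91.6 in PM-OVA, and of them Lep was at 0 in all PM-OVA libraries. Of the 7 adipocyte markers tested, 3 were called lower in the Sham offspring and 5 in the PM offspring, beside 47.5% and 45.2% of all genes tested. The part of adipocyte RNA in the fall of Cidec was not tested. The plot of Fabp1, Cidec and Mertk beside Alb, Adipoq and depth shows these values by library.

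**Figure D2:**
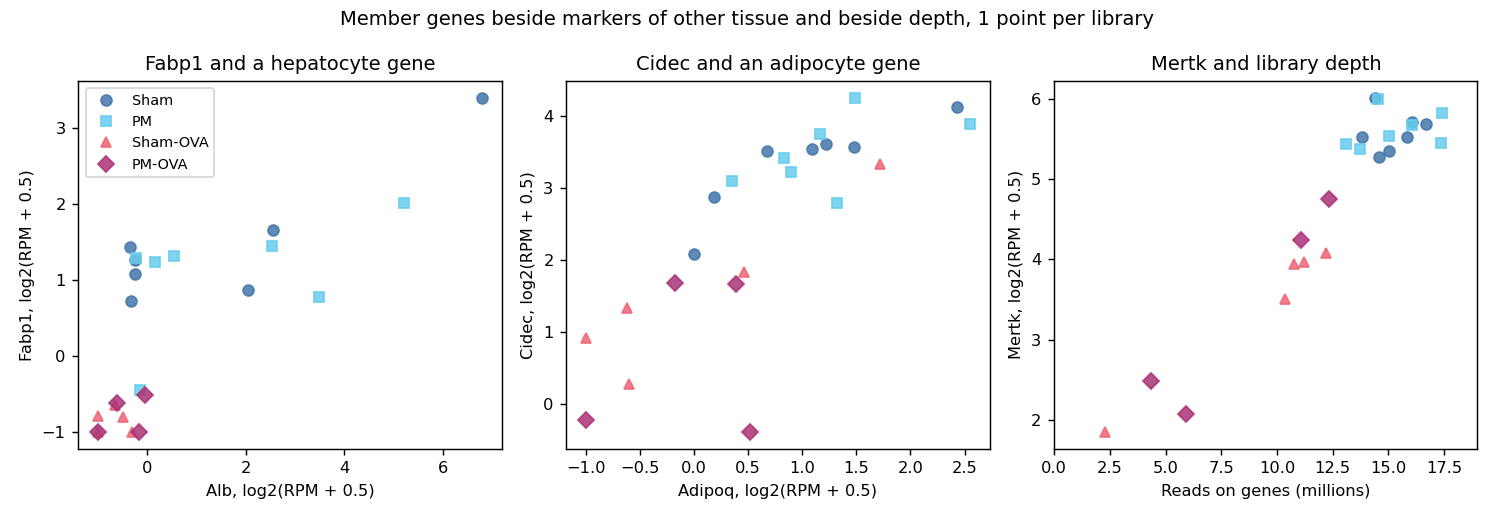
Left and middle, Fabp1 against the hepatocyte gene Alb and Cidec against the adipocyte gene Adipoq, both axes as log2(RPM + 0.5), and right, Mertk as log2(RPM + 0.5) against the number of reads on genes, with 1 point per library coloured by group. Sham replicate 4 stands at the upper right of the left panel with Alb at 110.5 RPM, Sham-OVA replicate 3 lies among the saline libraries in the middle panel, and the 3 shallowest libraries hold the lowest Mertk values.

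Pparg encodes PPAR-gamma, the nuclear receptor named above, which adipocytes also use (chromosome 6, 115360951 to 115490399, forward strand). It ran from 5.72 to 10.6 RPM, median 6.83, in Sham and from 5.80 to 8.90 RPM, median 7.94, in PM. The Sham-OVA libraries had 5.07, 3.16, 0.932, 4.14 and 4.24 RPM, all below Sham. The PM-OVA libraries had 5.91, 5.56, 0.664 and 1.27 RPM, of which the highest lay within the PM range. The log2 fold change was -1.11 (SE 0.30, limma adjusted p = 0.00444) in the Sham offspring and -1.44 (SE 0.41, limma adjusted p = 0.00850) in the PM offspring, and 27.2% and 15.9% of genes tested fell further. The call in the PM offspring rested on PM-OVA replicates 3 and 4, since without the 3 shallowest libraries the value was -0.38 (limma adjusted p = 0.0968), and edgeR did not make it (-0.85, adjusted p = 0.0575). Over the alternatives its adjusted p in the PM offspring ran from 2.31e-05 to 0.0968.

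Plet1 encodes a membrane-anchored surface protein named from the placenta (chromosome 9, 50494525 to 50505482, forward strand, with exons of the antisense gene Plet1os inside it). It ran from 29.2 to 78.2 RPM, median 64.9, in Sham and from 50.2 to 83.7 RPM, median 60.5, in PM. The Sham-OVA libraries had 32.7, 23.8, 13.0, 27.0 and 45.6 RPM, of which 3 lay below all Sham libraries. The PM-OVA libraries split, with 52.4 and 63.0 RPM in replicates 1 and 2, inside the PM range, and 19.9 and 17.2 RPM in the shallower replicates 3 and 4. The log2 fold change was -1.01 (SE 0.29, limma adjusted p = 0.00635) in the Sham offspring and -0.93 (SE 0.32, limma adjusted p = 0.0201) in the PM offspring, and 30.3% and 30.8% of genes tested fell further. In the PM offspring the call was lost without PM-OVA replicate 3 (-0.70, adjusted p = 0.0834), without PM-OVA replicate 4 (-0.63, adjusted p = 0.0807) and without all 3 shallowest libraries (-0.13, adjusted p = 0.536), and also with TMM scaling, quantile normalisation, DESeq2 and edgeR. The kit keeps strand, but whether strand was used in counting is not given in the sources used here, so reads of Plet1 and Plet1os may not be separated.

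Krt79 encodes a type II keratin of epithelia that is also listed among mouse alveolar macrophage markers (chromosome 15, 101929332 to 101940324, reverse strand). It ran from 2.86 to 10.5 RPM, median 6.33, in Sham and from 4.58 to 13.96 RPM, median 6.66, in PM. Krt79 in Sham-OVA was 3.96, 3.99, 8.08, 5.66 and 9.71 RPM, and the PM-OVA libraries 8.06, 12.8, 9.16 and 5.99 RPM. Every OVA library lay within the range of its saline group. Its log2 fold change was 0.01 (SE 0.33, 95% interval -0.69 to 0.71, limma adjusted p = 0.981) in the Sham offspring and 0.30 (SE 0.28, 95% interval -0.31 to 0.91, limma adjusted p = 0.364) in the PM offspring. In the PM offspring it was called higher with quantile normalisation (0.76, adjusted p = 0.0278) and TMM scaling (0.74, adjusted p = 0.0305), and its adjusted p over the other alternatives was at least 0.0506. The 4 keratinocyte markers summed to between 3.55 and 7.99 RPM in Sham, 3.91 and 6.95 RPM in Sham-OVA, and between 3.69 and 5.64 RPM in PM and 3.85 and 9.35 RPM in PM-OVA. Of the 3 tested, Krt14 was called higher in the Sham offspring (1.49) and Krt14 (0.93) and Krt1 (0.75, limma adjusted p = 0.0383) in the PM offspring, with medians of 0.04 and 0.75, and Krt5 was at 0 in all Sham-OVA libraries. Their part in the level of Krt79 was not tested.

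**Figure D3:**
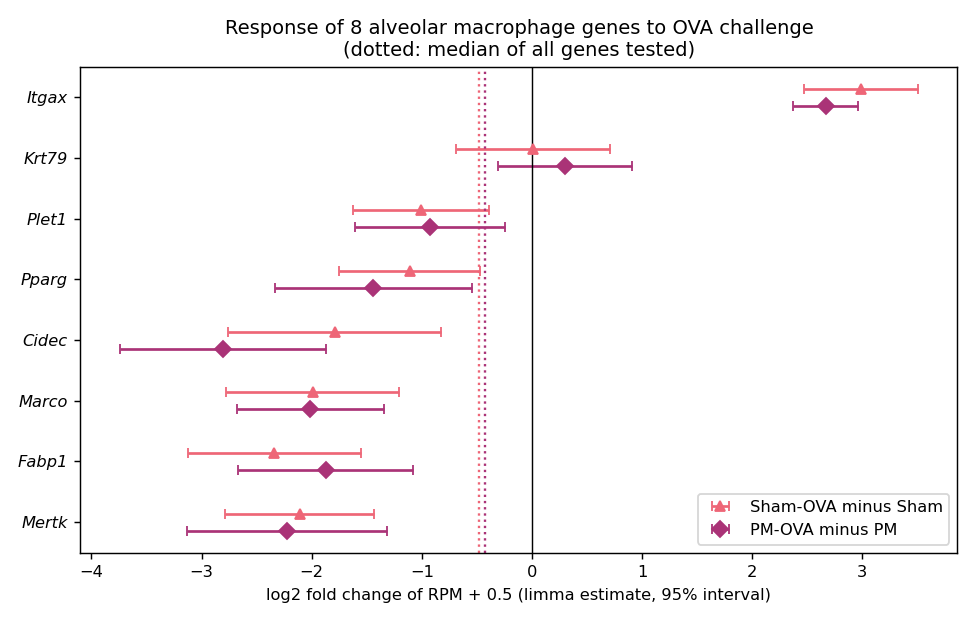
Log2 fold change of RPM + 0.5 after OVA challenge with its 95% interval (limma) for each gene, in the Sham offspring (triangles) and the PM offspring (diamonds). Dotted lines mark the medians of all genes tested, -0.48 and -0.43. The interval of Itgax lies wholly above 0, those of 6 genes wholly below 0, and that of Krt79 spans 0 in both cohorts.

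In both cohorts, 4 of the 8 members were lower in every OVA library than in every library of the matching saline group and 1, Itgax, was higher in every one. Among all genes tested, 35.0% were lower without overlap and 13.2% higher in the Sham offspring, and 28.6% and 13.3% in the PM offspring. The 4 genes in the Sham offspring were Marco, Fabp1, Pparg and Mertk, and in the PM offspring Marco, Fabp1, Cidec and Mertk.

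Divided by exon length, the order of the mean levels changed with OVA challenge. Plet1 led in Sham at 28.8 ± 8.76 RPM per kilobase (SD, n = 7), ahead of Mertk at 11.1 ± 1.99. Cidec at 5.61 ± 2.23, Fabp1 at 5.42 ± 5.73 and Itgax at 5.19 ± 1.34 lay within each other's SD, as did Marco at 1.43 ± 0.94 and Krt79 at 1.35 ± 0.61, with Pparg at 2.54 ± 0.57 between them. In Sham-OVA Itgax led at 42.9 ± 13.6 RPM per kilobase (SD, n = 5), followed by Plet1 at 14.6 ± 6.16 and Mertk at 2.79 ± 1.25. Fabp1 and Marco were last in Sham-OVA, at 0.11 ± 0.11 and 0.12 ± 0.10, and did not differ beyond their SD.

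Sequence upstream of the genes is shown for Itgax, the member that rose, and for Mertk and Plet1, the members with the highest levels per kilobase in Sham, which fell. Each run is RefSeq sequence of GRCm38.p6, written 5′ to 3′ on the strand of the gene, and covers 240 bases, with 10 bases left out between it and the start that RefSeq gives the gene. Matches to a motif are in capitals. That start was 128129550 for Itgax, 128698915 for Mertk and 50494525 for Plet1, so it differs from the start of the GENCODE gene model given above for Itgax and Mertk and is the same for Plet1.

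Itgax, chr7:128129300-128129539: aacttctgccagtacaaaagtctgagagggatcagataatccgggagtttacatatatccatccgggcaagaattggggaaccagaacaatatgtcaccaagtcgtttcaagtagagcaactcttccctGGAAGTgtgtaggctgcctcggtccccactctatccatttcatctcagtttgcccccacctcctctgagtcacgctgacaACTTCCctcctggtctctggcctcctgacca

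Mertk, chr2:128698665-128698904: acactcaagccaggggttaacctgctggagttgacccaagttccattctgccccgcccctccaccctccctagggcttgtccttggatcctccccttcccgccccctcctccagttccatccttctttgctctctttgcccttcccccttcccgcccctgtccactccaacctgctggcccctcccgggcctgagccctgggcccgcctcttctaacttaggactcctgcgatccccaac

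Plet1, chr9:50494275-50494514: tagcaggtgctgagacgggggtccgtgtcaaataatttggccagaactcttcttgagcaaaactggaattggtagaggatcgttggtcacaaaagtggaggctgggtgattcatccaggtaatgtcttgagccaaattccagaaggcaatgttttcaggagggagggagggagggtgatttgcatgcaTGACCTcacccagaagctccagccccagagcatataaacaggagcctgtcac

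The letters GGAAGT, a core bound by ETS factors such as PU.1, the product of Spi1 and a master factor of the myeloid lineage, were searched on both strands. They occurred in the window of 1 of the 8 members, Itgax, with 2 matches, whose first bases in the printed run lie 121 bases before the RefSeq start, on the strand of the gene, and 41 bases before it, on the opposite strand. The 8 members have 11 windows, of which 1 held a match, and of the 32851 windows of all genes 18.7% did. The letters AGGTCA, the core of many nuclear receptor elements, occurred in windows of 3 members, Fabp1, Plet1 and Pparg. That is 3 of the 11 member windows, beside 13.5% of all windows. Spi1 itself was called higher after OVA, by 1.92 (SE 0.23, limma adjusted p = 5.09e-06) in the Sham offspring and 1.51 (SE 0.14, limma adjusted p = 1.04e-05) in the PM offspring. A match describes letters, not binding.

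Other genes of alveolar macrophages did not follow the members as a group. Of 14 tested in a list of 16, OVA challenge raised 6, lowered 4 and left 4 without a call in the Sham offspring, with a median of 0.49, and raised 7 and lowered 4 in the PM offspring, with a median of 0.39. Car4 of this list, which is also counted below among the capillary endothelium markers, rose by 1.00 in the Sham offspring. Chil3, a chitinase-like lectin, went from 0.151 to 1.20 RPM in the Sham libraries to between 15.2 and 40.2 RPM in Sham-OVA (4.74, limma adjusted p = 1.18e-08), and Ctsk, a lysosomal protease, rose by 2.32 (limma adjusted p = 1.74e-06). Siglecf, a sialic acid lectin of alveolar macrophages and eosinophils, fell by 1.01 (limma adjusted p = 0.0183) in the Sham offspring and by 1.33 (limma adjusted p = 0.00362) in the PM offspring. Cd9, a tetraspanin, and Mcoln3, a lysosomal cation channel, fell by 1.70 and 1.11 in the Sham offspring. The lowest Cd9 values, 2.17, 7.04 and 5.81 RPM, were those of the 3 shallowest libraries, and the other OVA libraries had 24.7 to 50.3 RPM. Ear1 and Ear2 were too low to test, and these and Chil3 have near-identical copies in the genome, so their reads are uncertain.

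Among 14 genes of the GM-CSF and TGF-beta pathways and of the transcription factors of alveolar macrophages, 6 were higher and 4 lower in the Sham offspring, and 5 higher and 3 lower in the PM offspring, with medians of 0.59 and 0.12. Beside Spi1, the factor Cebpb rose by 1.44 and 1.41. Tgfbr2, a TGF-beta receptor, fell by 2.32 (limma adjusted p = 1.02e-04) and 2.37 (limma adjusted p = 0.00109). It was lowest in the 3 shallowest libraries, at 19.6 RPM in Sham-OVA and 47.3 and 28.1 RPM in PM-OVA, against 88.2 to 301 RPM in the other OVA libraries. Csf2ra, the GM-CSF receptor alpha chain, fell by 1.86 (limma adjusted p = 0.0374) in the Sham offspring and was not called in the PM offspring, at -1.40 (limma adjusted p = 0.0527). Csf2ra was at 0, 5.44 and 2.18 RPM in the same 3 libraries, against 14.5 to 50.1 RPM in the other OVA libraries.

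Of 11 genes of PPAR-gamma and lipid handling, 3 were higher and 3 lower in the Sham offspring and 2 higher and 5 lower in the PM offspring, with medians of -0.29 and -0.61. The fatty acid binding proteins moved apart from Fabp1, since Fabp4 rose by 0.95 and Fabp5 by 0.89 in the Sham offspring, and 4 further members of that family of 6 were too low to test. In the PM offspring Fabp5 was called higher, at 0.57 (limma adjusted p = 0.0337), and Fabp4 was at 0.26 (limma adjusted p = 0.538). Acaa1b, a peroxisomal thiolase, fell by 2.21 and 2.01, and Pdk4, a kinase that restrains glucose oxidation, by 1.48 and 1.61.

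The ligands of Mertk moved in opposite directions. Gas6 rose by 0.64 (limma adjusted p = 0.00676) and 0.85 (limma adjusted p = 3.70e-04), and Pros1, the gene of protein S, fell by 1.94 (limma adjusted p = 7.90e-04) and 2.32 (limma adjusted p = 0.00337). The 3 shallowest libraries held the lowest Pros1, 6.21 RPM in Sham-OVA and 8.10 and 9.26 RPM in PM-OVA. The other OVA libraries had 36.6 to 114.0 RPM, so the size of the fall depends on those 3. The related receptor Axl was called lower only in the Sham offspring, at -0.49 (limma adjusted p = 0.0169), against -0.32 (limma adjusted p = 0.0629) in the PM offspring. The interaction for Axl was 0.17 (95% interval -0.29 to 0.63) and was not called. In all, 2 of 10 efferocytosis genes were higher and 4 lower in the Sham offspring, and 1 higher and 3 lower in the PM offspring, with medians of -0.14 and -0.03.

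Other scavenger receptors divided evenly in the Sham offspring, with 4 of 12 higher and 4 lower, and 3 and 4 in the PM offspring, with medians of 0.0072 and 0.03. Msr1, a class A scavenger receptor like Marco, rose by 1.55 (limma adjusted p = 9.29e-05) and 0.74 (limma adjusted p = 0.00750), while Scara5, a ferritin receptor of stromal cells, fell by 2.47 and 2.32. Cd68 rose by 1.61 and 1.36. Among the 3 beta2 integrin genes tested of 4, Itgal of lymphocytes rose by 0.95 and 0.51, and no other gene of the list was called.

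**Figure D4:**
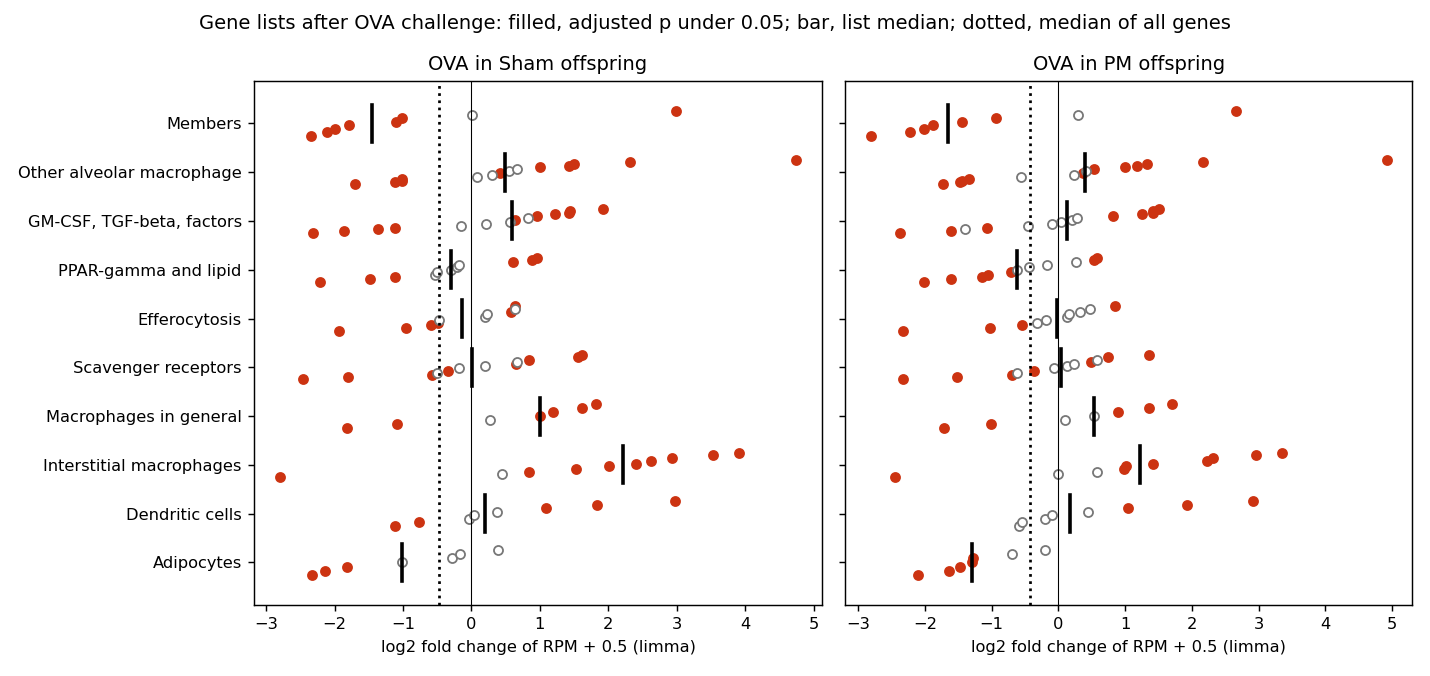
Log2 fold change of RPM + 0.5 after OVA challenge (limma) for the genes of 10 lists in the Sham offspring (left) and the PM offspring (right), 1 point per gene, filled where called, with the list median as a bar and the median of all genes as a dotted line. The members lie mostly to the left with Itgax alone at the right, while the interstitial macrophage genes lie mostly to the right, with a median of 2.21 in the Sham offspring.

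Markers of other cells that carry Itgax or macrophage genes moved at the same time. Of 10 interstitial macrophage markers, 8 were higher and 1 lower in the Sham offspring and 7 and 1 in the PM offspring, with medians of 2.21 and 1.22, and their summed level went from between 357 and 913 RPM in Sham to between 1653 and 2517 RPM in Sham-OVA, and from between 541 and 738 RPM in PM to between 1561 and 2077 RPM in PM-OVA. C1qa, a complement gene of tissue macrophages, rose by 3.91 (limma adjusted p = 1.66e-09) and 3.36 (limma adjusted p = 1.55e-06). Lyve1 of the same list fell by 2.79 in the Sham offspring. Its mean went from 448 RPM in Sham to 70.9 RPM in Sham-OVA, and from 411 RPM in PM to 100 RPM in PM-OVA. The mean of C1qa went from 71.8 to 1085 RPM and from 86.9 to 932 RPM. Lyve1 was thus the largest part of this summed level in the saline groups, and C1qa in the OVA groups. Of 7 general macrophage markers, 4 were higher and 2 lower in the Sham offspring and 3 and 2 in the PM offspring, and Lyz2 fell by 1.81 and 1.71. Their sum went from between 752 and 1676 RPM in Sham to between 2226 and 3563 RPM in Sham-OVA, and from between 1180 and 1394 RPM in PM to between 1705 and 3897 RPM in PM-OVA. The largest part of that sum was Ctsd. Its mean went from 614 RPM in Sham to 2149 RPM in Sham-OVA, and from 667 RPM in PM to 2451 RPM in PM-OVA. The sum therefore follows Ctsd more than the list as a whole.

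Of 8 dendritic cell markers, 3 were higher in each cohort, with Clec10a at 2.97 and Flt3 at 1.84 in the Sham offspring, and 2 were lower in the Sham offspring, Clec9a and Zbtb46. Their sum overlapped between Sham, 90.7 to 152.1 RPM, and Sham-OVA, 108.4 to 166.7 RPM. Of 5 eosinophil markers, 4 were higher in each cohort, with Prg2 at 3.94 in the Sham offspring, and 1 was lower, Siglecf, and the median of their sum went from 9.06 RPM in Sham to 31.4 RPM in Sham-OVA. Of 6 monocyte markers, 2 were higher and 1 lower in the Sham offspring, and 3 higher in the PM offspring. Of these lists, the monocyte gene Ly6c2 and the eosinophil gene Epx were at 0 in all 14 saline libraries, and no other gene of the interstitial macrophage, general macrophage, dendritic cell, eosinophil or monocyte lists was at 0 in all libraries of a group. The part of these cells in the rise of Itgax was not tested. Of 6 alveolar type 2 markers, 1 was higher, Sftpc at 1.19 in the Sham offspring, and 3 were lower in each cohort, and of 6 capillary endothelium markers 2 were higher and 3 lower in each cohort.

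Over all 23 libraries, the genes whose pattern was most like that of Itgax were Acp5 (Pearson's r = 0.99), H2-Aa (0.99) and H2-Ab1 (0.99) on the log2 scale. For Mertk they were Acap2 (0.99), Rbms3 (0.99) and Nbeal1 (0.99), for Pparg Tmem42 (0.98), Ginm1 (0.98) and Gtf2a1 (0.97), and for Plet1 Mpeg1 (0.94), Lilra5 (0.94) and Smpdl3a (0.94). Marco was most like Lyz1 (0.91), Fgf13 (0.91) and Spry2 (0.90), Cidec like Scara5 (0.91), Fbln2 (0.91) and Tirap (0.90), and Fabp1 like Gm28809 (0.92), Vstm2a (0.91) and Galnt13 (0.91). Krt79 had no close match, the highest being Ctf1 (0.68), Tppp3 (0.67) and Vps37b (0.66). These values include both the step from saline to OVA and the split between deeper and shallower OVA libraries. The part of each was not tested.

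Within the 14 saline libraries, as deviations from the group means, the likeness changed. Plet1 was most like Lilra5 (0.95), Plod3 (0.95) and Itpk1 (0.95), and Cidec like Lilra5 (0.94), Pik3ap1 (0.93) and Siglecf (0.92). Itgax was most like Exosc3 (0.93), H2-Ab1 (0.92) and D1Ertd622e (0.91), Marco like Bnipl (0.91) and Rnase4 (0.87), and Pparg like Dpyd (0.85), Dpp3 (0.83) and St6galnac4 (0.83). Mertk was most like Limk1 (0.94), Rora (0.91) and Peli2 (0.90), Fabp1 like Tmem154 (0.92), 1700003E16Rik (0.92) and Agtrap (0.90), and Krt79 like Cdkl2 (0.93), H1f2 (0.89) and Mrgprf (0.89). These names are among the highest of 16795 genes and carry no test.

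Between members in the saline libraries, 5 of 28 pairs passed an adjusted p of 0.05 for Pearson's r, and none did for Spearman's rho. Plet1 and Cidec rose and fell together, with r = 0.85 (permutation p = 2.20e-04, adjusted 0.00682) and rho = 0.64 (permutation p = 0.0174, adjusted 0.0768), with r = 0.64 without the 2 farthest libraries, 0.96 within Sham and 0.66 within PM. Krt79 had r = 0.78 with Plet1 (permutation p = 0.00103, adjusted 0.0160, rho = 0.72 with permutation p = 0.00519, r = 0.55 without the 2 farthest). Krt79 and Cidec had r = 0.68 (permutation p = 0.00795, adjusted 0.0355, rho = 0.54 with permutation p = 0.0506), which fell to 0.32 without the 2 farthest libraries and so rests on them. Marco and Pparg had r = 0.68 (permutation p = 0.00733, adjusted 0.0355, rho = 0.69 with permutation p = 0.00880, r = 0.54 without the 2 farthest). Itgax and Mertk ran in opposite directions among the saline libraries too, with r = -0.68 (permutation p = 0.00802, adjusted 0.0355) and rho = -0.65 (permutation p = 0.0144, adjusted 0.0744), with r = -0.58 without the 2 farthest, -0.88 within Sham and -0.52 within PM. This was not particular to Itgax, since Mertk had a negative r with every other member. The rest ran from -0.23 with Plet1 to -0.55 with Krt79, and none of them passed. The 21 pairs without Mertk all had a positive r.

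Whether maternal PM2.5 by itself moved these genes was asked by setting PM against Sham. None of the 8 was called by limma, DESeq2 or edgeR, and 0 of 8 had an unadjusted p under 0.05, beside 0.0% of all genes called by each of the 3 tests and 731 with an unadjusted limma p under 0.05. The lowest adjusted p was 0.898, and the groups overlapped for every member. The 95% interval of the log2 difference was narrow for Mertk, -0.22 to 0.28, Pparg, -0.24 to 0.33, and Itgax, -0.12 to 0.49. It was wider for Plet1, -0.16 to 0.61, Krt79, -0.36 to 0.82, Cidec, -0.43 to 0.75, and Marco, -0.42 to 0.90. It was widest for Fabp1, -1.24 to 0.44, whose estimate of -0.40 became -0.08 without Sham replicate 4.

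Between the challenged groups, PM-OVA against Sham-OVA, no member was called by the same 3 tests, and 0 of 8 had an unadjusted limma p under 0.05. Of all genes, limma called 0.0%, with 313 at an unadjusted p under 0.05, DESeq2 called 1 and edgeR 0. The estimates were 0.22 for Marco (95% interval -0.56 to 1.01), 0.52 for Krt79 (-0.27 to 1.31), 0.07 for Fabp1 (-0.30 to 0.43) and 0.31 for Plet1 (-0.74 to 1.35). They were -0.85 for Cidec (-2.39 to 0.68), -0.28 for Pparg (-1.66 to 1.09), -0.14 for Itgax (-0.75 to 0.48) and -0.09 for Mertk (-1.56 to 1.39). The intervals of Cidec, Mertk and Pparg were the widest of the 8, and the spread within PM-OVA divided the deeper replicates 1 and 2 from the shallower replicates 3 and 4. Without the 3 shallowest libraries Mertk was at 0.62 (limma adjusted p = 0.238), Cidec at 0.58 (0.454) and Pparg at 0.44 (0.374), none called.

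The interaction, the OVA response in PM offspring minus that in Sham offspring, passed the test for no member by limma, DESeq2 or edgeR, and 0 of 8 had an unadjusted limma p under 0.05. Of all genes, limma called 0.0%, with 854 at an unadjusted p under 0.05, DESeq2 called 2 and edgeR 0. It was largest for Cidec, -1.01 (95% interval -2.39 to 0.36), followed by Fabp1, 0.47 (-0.66 to 1.59), Pparg, -0.33 (-1.41 to 0.75), Itgax, -0.32 (-0.93 to 0.29), and Krt79, 0.29 (-0.65 to 1.23). For Mertk it was -0.12 (-1.25 to 1.02), for Plet1 0.08 (-0.85 to 1.01) and for Marco -0.02 (-1.07 to 1.03). The OVA responses of the cohorts thus stand side by side without a called difference, and their intervals do not show them to be equal. Array weights weigh each library by its estimated spread. With them the interaction was called lower for Mertk (-1.37) and Pparg (-1.51), both at a limma adjusted p of 0.00439. Of all genes tested, 651 were then called higher and 3965 lower, with a median of -0.32. The weights moved the median OVA response of all genes to -0.33 in the Sham and -0.62 in the PM offspring. Without the 3 shallowest libraries the interaction was 0.59 for Mertk and 0.39 for Pparg, neither called. There, 612 of all genes were called higher and 109 lower.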

How the data were processed

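Lung RNA of 23 offspring was grouped by the maternal exposure and challenge in the labels. For the authors' table, Trimmomatic was used for trimming, Bowtie2, which does not splice reads across introns, placed the reads on GRCm38, and SeqMonk quantified them. The values deposited by the authors are RPM. The table is named after RPKM, for which the tests were planned, but 100% of values were whole multiples (tolerance 0.01) of the value of 1 read, whatever the gene length, so reads were recovered. Ptp4a1 is listed more than once.

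Here log2(RPM + 0.5) of the 16795 genes that reached 0.5 RPM in 4 or more libraries was tested with limma 3.58.1 (R 4.3.3, trend, 2 groups per fit, Benjamini-Hochberg adjustment), and the interaction over 4 groups. The script was tested on simulated data. Alternatives included other pseudocounts, filters and scalings, DESeq2 1.42.0 and edgeR 4.0.16 on recovered reads, and leaving out each library. The 8 members, 7 pathway lists and 10 marker lists were chosen with earlier results of these data known. All members are named. From each list the text names up to 2 of the largest rises and falls among the genes called in the Sham offspring, with the defining markers, and for each member the 3 genes with the highest Pearson's r, of which 1 is not reported here. Axl, Itgb2 and the other genes named outside that rule were chosen after their values were seen. Replicates are samples of offspring, numbered as in the sample titles, and most library names of the OVA groups carry another number. Litters are not given in the sources used here, so p-values measure the spread between these samples. Lengths and positions are from GENCODE M21.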

Additional observations from a re-analysis of the deposited data

Results flagged for a closer look

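In 32 groups of 4 to 7 libraries (8 genes in 4 groups), 3 values stood apart from the rest of their group by Dixon's test, of which chance flags about 1 in 20 groups. Fabp1 in Sham replicate 4 was 10.08 RPM, with the next at 2.68 RPM. Krt79 in PM replicate 4 was 13.96 RPM, with the next at 8.34 RPM. Cidec in Sham-OVA replicate 3 was 9.632 RPM, with the next at 3.07 RPM. The hepatocyte gene Alb was highest in Sham replicate 4 among all libraries and highest in PM replicate 4 among the PM libraries, and the adipocyte gene Adipoq was highest in Sham-OVA replicate 3 among the Sham-OVA libraries. The part of those tissues in the 3 values was not tested.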

How the results depend on the processing

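For each comparison of groups the 8 members were refitted under 14 or 15 alternatives and without each library in turn. Removing the 3 shallowest libraries was chosen after seeing the data. In the Sham offspring all 7 calls held under every alternative except Cidec with DESeq2, and in the PM offspring all but those of Plet1 and Pparg given above. After every library was thinned to 2298645 reads all 7 calls held in both cohorts. Members called higher in the PM offspring were 2 with quantile normalisation and with TMM scaling, and members called lower in the interaction were 2 with array weights, where 651 genes were called higher and 3965 lower against 0. The DEG count, 758 in the Sham and 48 in the PM offspring, ran over the alternatives from 5 and 0 with the replicate block to 4861 and 2851 with DESeq2. DESeq2 added Fabp1 and Mertk in the Sham offspring and Cidec in the PM offspring, array weights added Cidec and Mertk in the Sham offspring and Mertk in the PM offspring, and Itgax missed the DEG threshold under the replicate block in both cohorts and, in the Sham offspring, with no filter and without Sham-OVA replicate 2, 4 or 5. The cause was not tested.

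Replicate numbers, taken from the sample titles, did not pair the libraries (1 of 5 pairs correlated over 0.1 for OVA in Sham, 0 of 4 in PM, 1 of 7 for PM against Sham and 3 of 4 for PM-OVA against Sham-OVA). In the OVA groups most of these numbers differ from those in the library names, and pairing by the library names was not tested. With the number as a replicate block, DEGs fell to 5 and 0, called genes went from 11431 to 10025 and from 10968 to 7982, and the members' calls changed for Plet1 in the PM offspring.

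Signs changed for estimates that were not called. Krt79 after OVA in the Sham offspring was -0.088 with array weights, -0.016 with the replicate block, -0.10 without the 3 shallowest and -0.16 to 0.14 without single libraries, and Csf2ra in the PM offspring was 0.16 without the 3 shallowest. For PM-OVA against Sham-OVA, Fabp1 was -0.035 with quantile normalisation and -0.029 with array weights, Plet1 -0.023 with array weights, Mertk 0.039 with the replicate block, 0.070 with DESeq2 and 0.047 with edgeR, and without the 3 shallowest Marco was -0.052, Mertk 0.62, Cidec 0.58 and Pparg 0.44. For the interaction, Marco was 0.034 with pseudocount 0.1, 0.043 with median-of-ratios scaling, 0.049 with TMM scaling, 0.36 with array weights, 0.079 with the replicate block, 0.62 with DESeq2, 0.53 with edgeR and 0.35 at one depth, Fabp1 -0.0046 and Plet1 -0.53 with array weights, Mertk 0.058 with DESeq2 and 0.053 with edgeR, and without the 3 shallowest Mertk was 0.59, Cidec 0.43 and Pparg 0.39. Without single libraries, PM against Sham ran from -0.051 to 0.29 for Cidec, -0.032 to 0.10 for Mertk and -0.0082 to 0.13 for Pparg. PM-OVA against Sham-OVA ran from -0.023 to 0.14 for Fabp1, -0.12 to 0.47 for Marco, -0.54 to 0.35 for Mertk, -0.0030 to 0.61 for Plet1 and -0.65 to 0.17 for Pparg. The interaction ran from -0.36 to 0.23 for Marco, -0.57 to 0.32 for Mertk, -0.23 to 0.38 for Plet1 and -0.70 to 0.12 for Pparg.

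Every OVA library was shallower than every saline library, so depth and challenge cannot be told apart. Marco and Fabp1 rest on at most 16 reads in an OVA group, which limits the size of their falls. Intervals cover the spread between libraries only.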
